A study of Mus musculus with 10 samples.

Results

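The early response of Ptger4+/+ B cells to engagement of their antigen receptor was read from 2 of the 10 arrays of the series, those on which RNA of cells given anti-IgM for 2 h was hybridised together with RNA of cells kept in medium for 2 h. The members were chosen by the channel labels alone. The cells were B cells isolated from the spleens of female Ptger4+/+ mice aged 2 months with a magnetic B cell isolation kit. They were held in IMDM medium, and for one channel F(ab')2 antibody fragments against IgM were added. RNA was amplified with T7 polymerase and labelled with Cy3 or Cy5, and the dyes were exchanged between the arrays: on array 1 the anti-IgM RNA was in Cy3, and on array 2 it was in Cy5. Other arrays used here for comparison held the same pair of conditions in Ptger4-/- B cells (2 arrays), and Ptger4+/+ B cells given anti-IgM with prostaglandin E2 (PGE2) for 24 h against anti-IgM alone for 24 h (2 arrays). Ptger4 encodes the PGE2 receptor EP4, which raises cyclic AMP. The labels state neither the number of mice nor whether both arrays of a pair carry the same RNA extracts, so every p-value may cover technical spread alone.

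Anti-IgM cross-links the B cell receptor, in which membrane immunoglobulin is joined to the signalling chains CD79A and CD79B. The kinases LYN, SYK and BTK then act through phospholipase C gamma 2, the Ras and MAP kinase cascade, calcineurin and NFAT, and NF-kB. Within hours a resting B cell switches on immediate-early transcription factors and begins to enlarge before it divides, and receptor engagement without help from T cells gives only part of the programme.

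Values are log2 ratios of anti-IgM over medium, turned for the dye and averaged over probes of a gene, and pairs of values are those of array 1 and array 2. The means carry the standard error of a limma fit to all 10 arrays, whose spread per gene is pooled over the comparisons, with n = 2 arrays for each mean. A gene was called when its limma p, adjusted by Benjamini-Hochberg over 22533 features, was at most 0.05. On that rule 2188 features (9.71%) were called higher with anti-IgM and 2561 (11.4%) lower, of which 2009 and 2221 had a gene symbol. Most calls were small: 1367 of the higher and 1762 of the lower ones had a mean change under 1.5-fold. By size alone, 597 features (2.65%) were higher and 639 (2.84%) lower by at least 1.5-fold on both arrays, 229 (1.02%) and 234 (1.04%) by at least 2-fold, and 24 (0.107%) and 23 (0.102%) by at least 4-fold. At 8-fold only Ccl3 and Egr2 were higher on both (0.00888%) and no feature was lower. When array 1 was left unturned, 6 features passed the 2-fold size. The median absolute difference between the arrays was 0.14, and 60 called features had opposite signs on them. The arrays hold ratios only, so neither the level of a gene nor its signal over background is known, the number of arrays limits the precision, and all changes are relative to the median feature (0.0047). In bulk RNA, fewer cells of a type and less RNA per cell cannot be told apart. The direction of the deposited ratios was taken as Cy5 over Cy3. It is likely from the immediate-early genes, whose rise is therefore a description and no finding of its own, and the log base was taken as 2. Among the genes named below, the call was lost without array 1 alone for Nfkbia, Birc3, Eif5a, Rpl22, Ezh2, Zfp36l1, Ebna1bp2, Cd68, Zbtb46, Ddx3x and Agap2. Without array 2 alone it was lost for Npm1, Gpi1, Rpl11, Rps9, Mcl1 and Nckipsd. Without each array in turn it was lost for Tap1, Jun, Il10, Hba-a1, Itgax, Plagl2 and Il17ra. Probes of a gene could also disagree. Eno1, Zfp36l1 and Zbtb46 were called as averages, but only 1 of the 2 probes of each was called alone. Rrn3 and Mxd1 were not called as averages, but 1 of 2 Rrn3 probes was called higher and 1 of 2 Mxd1 probes lower.

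**Figure D1:**
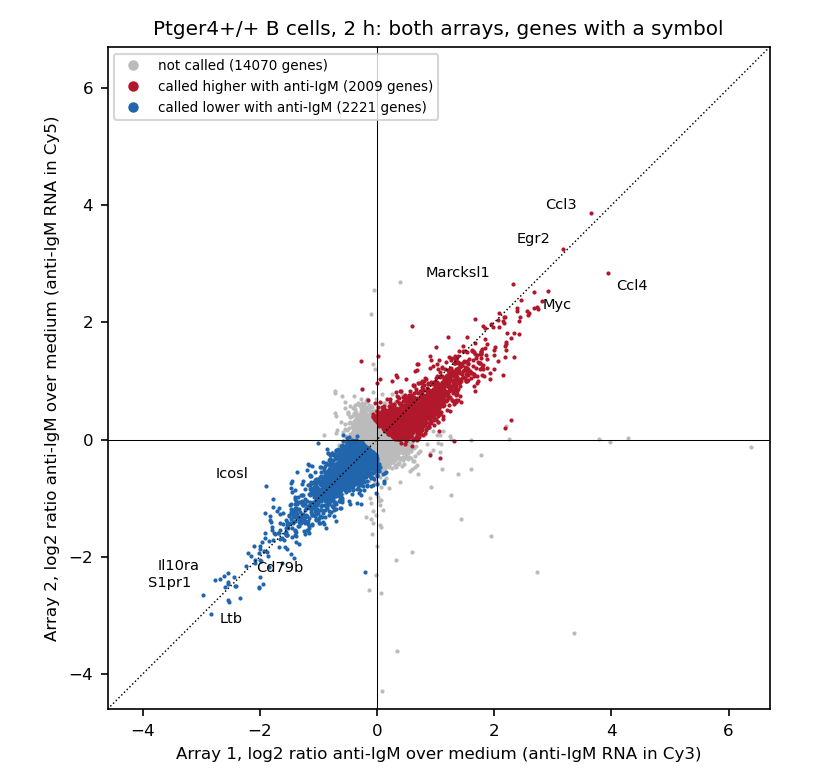
Log2 ratio of anti-IgM over medium on array 1 (horizontal) and array 2 (vertical) for genes with a symbol, each point 1 gene, coloured by its limma call; the dotted line marks equal values. Called genes lie along the dotted line, with Ccl3, Ccl4 and Egr2 at the upper end and Ltb and S1pr1 at the lower end, and uncalled points far from the origin lie away from that line.

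Markers of the cells themselves were read first. Of 9 measured B cell markers, 4 fell (Cd79b, Cd22, Cd79a and Ms4a1), Blk rose and 4 were not called. Shares over all features were 9.71% higher and 11.4% lower, so a single call in lists this short carries little weight. Among markers of other cells, none of 8 for NK cells, 6 for neutrophils and 7 for platelets was called. Of 9 T cell markers, Cd2 had log2 ratios of -1.38 and -1.59 and was called lower, Cd3g had 0.30 and 0.49 and was called higher, and Cd3d, Cd3e, Cd4, Cd8a, Lat, Thy1 and Cd28 were not called. Cd2 is also expressed by mouse B cells. Elsewhere, 1 of 6 monocyte and macrophage markers (Cd68), 1 of 8 dendritic cell markers (Zbtb46) and 1 of 3 red cell markers (Hba-a1) rose. The dendritic cell marker Itgax fell. All of these changes were less than 0.40 in mean log2 ratio. Plasma cell markers moved further: 4 of 6 fell and 2 were not called, with a median of -0.33 and a lowest mean of -2.01. Being ratios, these values do not tell how many cells of each type were present.

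The 25 largest rises ran from Ccl3 down to Ctps. The chemokines CCL3 and CCL4, which attract T cells and monocytes, gave 3.66 and 3.87 for Ccl3 and 3.93 and 2.84 for Ccl4. Beyond the transcription factors described below, the group held Hk2 at 2.55 and 2.20, whose product is the first enzyme of glycolysis, and the interleukin-4-induced amino acid oxidase gene Il4i1 at 2.19 and 2.09. Il1r2, which encodes a decoy receptor for interleukin-1, had 2.16 and 2.09. Transport and surface genes were among them, with Slc25a33, a mitochondrial carrier of pyrimidine nucleotides, at 2.43 and 2.03, the organic anion carrier Slco4a1 at 2.38 and 2.19 and the inhibitory leukocyte receptor gene Lilr4b at 2.38 and 2.24. Plek, encoding the protein kinase C substrate pleckstrin, had 2.42 and 1.81, and Pa2g4, whose product binds ribosomal RNA precursors and regulates growth, had 2.34 and 1.81. All 25 were above 0 on both Ptger4-/- arrays too, where 30.4% of all features were.

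The 25 largest falls ran from Ltb to Prkd2 and were steeper on neither array: the median was -2.43 on both. Several encode signalling proteins of resting lymphocytes. Rasa3, a GTPase-activating protein for Ras and Rap1, had -2.55 and -2.28. Prkd2, a kinase downstream of diacylglycerol, had -1.996 and -2.05. Sash3, an adaptor of lymphocytes, had -2.21 and -1.94, and Plekha2, which binds phosphoinositides at the membrane, had -2.02 and -2.51. Others act on the cytoskeleton or membrane: Cnn2, encoding calponin 2, had -2.43 and -2.49, the intermediate filament gene Vim had -1.95 and -2.46, and Bin1, whose product bends membranes, had -2.08 and -2.11. Marchf1 had -2.42 and -2.49 and encodes a ubiquitin ligase that removes MHC class II and CD86 from the B cell surface. Cerk, the ceramide kinase gene, had -2.08 and -2.06, and Acss1, which makes acetyl-CoA in mitochondria, had -2.002 and -2.35. All 25 were below 0 on both Ptger4-/- arrays, where 28.3% of all features were, and all 50 rises and falls kept their call under each of the alternative fits in which they were tested.

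**Figure D2:**
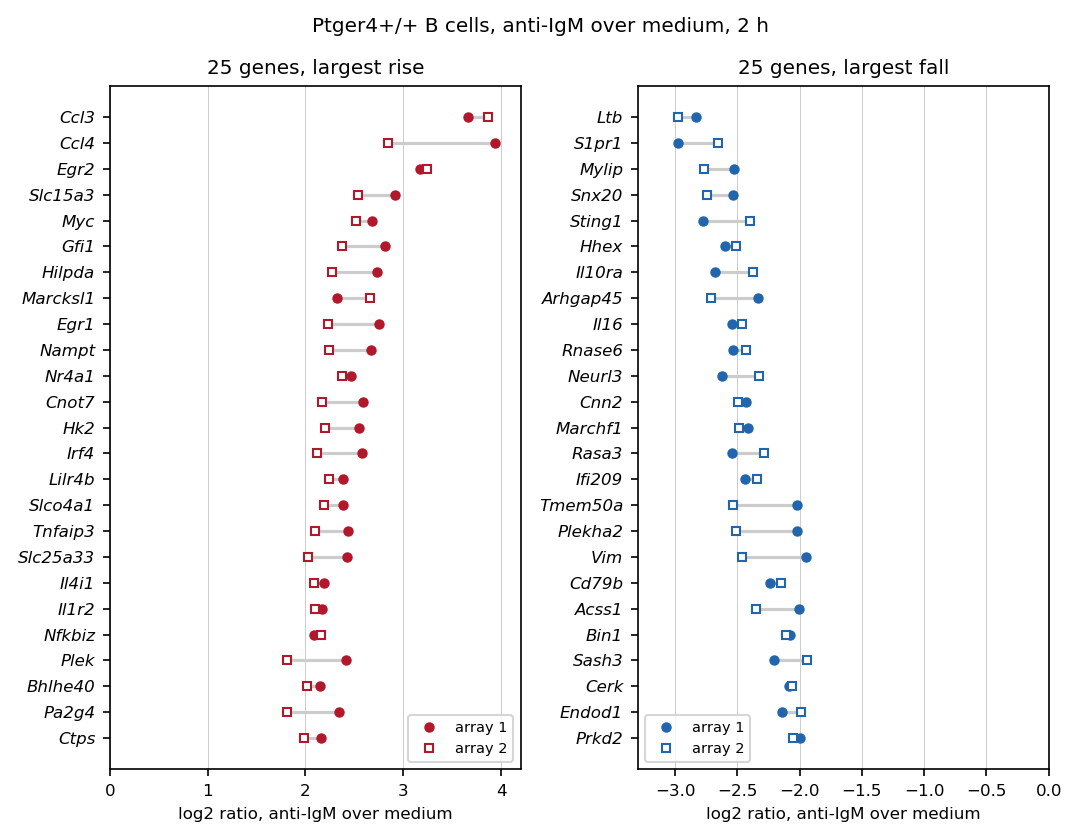
Log2 ratio of anti-IgM over medium for the 25 largest rises (left, red) and the 25 largest falls (right, blue), with array 1 as filled circles and array 2 as open squares joined by a line. In most of the rises array 1 is the higher one, with Ccl4 furthest apart, and no gene crosses 0.

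Messenger RNAs of the receptor itself mostly moved down. Of 12 measured genes of the B cell receptor complex and its coreceptors, 8 fell, 2 rose and 2 were not called, with a median log2 ratio of -0.51 against 0.0047 over all features. Both signalling chains fell: Cd79b had -2.24 and -2.15 (mean -2.20 ± 0.061, limma adjusted p = 2.33e-06) and Cd79a had -1.48 and -1.42 (mean -1.45 ± 0.065, limma adjusted p = 7.93e-06). Of the inhibitory coreceptors, Cd22, a sialic acid binding lectin, had -1.88 and -1.91. Fcgr2b, the low-affinity Fc receptor, had -1.97 and -1.75. Ptprc, encoding the phosphatase CD45, which is not one of these inhibitory coreceptors, also fell, with -1.41 and -1.63. The exceptions were Cd72 at 1.80 and 1.27 and Cd5 at 0.52 and 0.21, which both encode negative regulators of receptor signalling and rose. The complement receptor gene Cr2, at -0.030 and 0.14, was not called.

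Proximal kinases and adaptors fell more often than they rose: of 28 measured, 14 fell, 5 rose and 9 were not called, with a median of -0.25. Syk, the kinase recruited to the CD79 chains, had -0.98 and -0.92 (mean -0.95 ± 0.057, limma adjusted p = 2.87e-05). The steps after it were also lower, with Btk at -0.90 and -0.48, its adaptor Blnk at -0.60 and -0.71 and Plcg2 at -0.63 and -1.003. Dok3, an inhibitory adaptor, was the lowest of the list at -0.92 and -1.41. Among the rises were the Src family kinase genes Fyn at 1.15 and 1.01 and Blk at 0.80 and 0.28, and Pik3ap1, the BCAP adaptor of phosphoinositide 3-kinase, at 1.03 and 0.83.

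Further downstream the lists split. In the calcium, calcineurin and NFAT list 4 of 18 rose and 4 fell. Nfatc1, which encodes an NFAT factor, had 1.33 and 1.08 (mean 1.21 ± 0.072), while of the calcineurin catalytic genes Ppp3ca fell with -0.65 and -0.82 and Ppp3cc with -0.54 and -0.70, and Ppp3cb at 0.078 and -0.063 was not called. In the Ras and MAP kinase list 8 of 27 rose and 9 fell. Among the rises were the MAP kinase phosphatase genes Dusp1 at 0.68 and 1.19, Dusp4 at 0.95 and 0.61 and Dusp2 at 0.84 and 0.44. The stress gene Gadd45b had 1.47 and 1.16, and the kinase genes Map2k3 at 1.03 and 0.69 and Map3k8 at 0.63 and 0.34 rose too. The falls held other kinases, Mapk14 (p38 alpha) at -0.95 and -1.05 and Mapk3 (ERK1) at -0.64 and -1.17. They also held the ERK phosphatase Dusp6 at -0.95 and -1.003 and the stress gene Gadd45a at -0.86 and -0.43. Of the Ras brakes, Rasa3 and Rasal3 fell, the latter with -0.75 and -0.74, and Rasa2 rose with 0.38 and 0.21. The ERK brakes Spry1, Spry2, Spred1 and Spred2 were not called.

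Genes of the NF-kB system rose in 11 of 21 cases and fell in 3, with a median of 0.34. NF-kB factors bind DNA as dimers and are held in the cytoplasm by IkB inhibitors. Among subunits, Nfkb1 had 1.35 and 1.35 (mean 1.35 ± 0.084, limma adjusted p = 3.3e-05), Rel had 1.003 and 0.65 and Relb had 0.54 and 0.68, whereas Rela had 0.11 and -0.37 and was not called. Among inhibitors and other IkB genes, Tnfaip3, the ubiquitin-editing enzyme A20, had 2.43 and 2.10. Nfkbiz, of an atypical IkB that is not one of those cytoplasmic inhibitors, had 2.09 and 2.16. Nfkbie had 1.01 and 0.62, and Nfkbia, which encodes IkB alpha, had 0.78 and 0.081, a small rise that was carried by array 1. The falls were Cyld, a deubiquitinase that restrains the pathway, at -0.55 and -0.62, Bcl3 at -0.88 and -0.40 and Birc3 at -0.58 and 0.075, the last with a sign that differed between the arrays.

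NF-kB is known to bind close to the start of several of these genes, so the promoters of Tnfaip3 and Nfkbia are shown beside that of Ltb, the gene with the largest fall, and that of Egr2, the third largest rise. They are RefSeq windows of the build GRCm38.p6, 250 bases before to 50 after the start of transcription. The genes were chosen after their values were seen. For a gene with several windows, the window with the most matches to the marked motif was taken. They lie at chr10:19015361-19015660 (minus strand) for Tnfaip3, chr12:55492598-55492897 (minus strand) for Nfkbia, chr17:35194257-35194556 (plus strand) for Ltb and chr10:67537316-67537615 (plus strand) for Egr2. Capitals mark matches to the NF-kB site in the first 3 and the CArG box, the site of serum response factor, in Egr2.
Tnfaip3: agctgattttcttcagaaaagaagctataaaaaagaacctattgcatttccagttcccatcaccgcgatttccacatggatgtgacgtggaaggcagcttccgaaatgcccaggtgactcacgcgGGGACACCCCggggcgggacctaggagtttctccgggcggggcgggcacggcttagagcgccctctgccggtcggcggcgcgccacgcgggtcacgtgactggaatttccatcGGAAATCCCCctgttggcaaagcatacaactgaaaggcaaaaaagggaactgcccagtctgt
Nfkbia: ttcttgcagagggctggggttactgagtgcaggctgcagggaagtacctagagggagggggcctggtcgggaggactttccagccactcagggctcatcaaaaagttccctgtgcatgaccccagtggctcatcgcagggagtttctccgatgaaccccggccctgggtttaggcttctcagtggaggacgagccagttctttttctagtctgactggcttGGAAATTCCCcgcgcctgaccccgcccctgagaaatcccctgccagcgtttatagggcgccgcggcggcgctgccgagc
Ltb: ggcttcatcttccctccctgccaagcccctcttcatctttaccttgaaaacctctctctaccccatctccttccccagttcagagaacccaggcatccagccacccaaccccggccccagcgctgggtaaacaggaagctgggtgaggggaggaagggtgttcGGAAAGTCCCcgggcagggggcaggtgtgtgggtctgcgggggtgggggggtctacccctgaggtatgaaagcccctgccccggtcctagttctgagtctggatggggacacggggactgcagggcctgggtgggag
Egr2: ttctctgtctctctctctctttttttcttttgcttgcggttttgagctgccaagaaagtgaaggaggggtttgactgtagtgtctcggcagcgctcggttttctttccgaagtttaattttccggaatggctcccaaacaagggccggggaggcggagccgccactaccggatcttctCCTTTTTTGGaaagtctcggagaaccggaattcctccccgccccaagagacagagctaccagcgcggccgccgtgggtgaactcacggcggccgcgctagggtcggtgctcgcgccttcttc
The windows of 17 genes of the NF-kB list (26 windows, as some genes have several starts) held an NF-kB site in 57.7% of cases, against 7.68% of 18211 windows of all measured genes with a promoter in the table. Genes called up and down shared the match: it was in 4 of 27 windows of the 25 largest rises and in 8 of 25 windows of the 25 largest falls. With a size of at least 2-fold on each array it was in 6.91% of the windows of the rises and 12.1% of those of the falls. The CArG box was found in 5 of 21 windows of the immediate-early list and in 1.42% of all windows. A match is a string of letters and not a bound site. Both strands were searched for 4 motifs: the NF-kB site, the CArG box, the AP-1 site TGANTCA, found in 8 of 26 windows of the NF-kB list and in 7.02% of all windows, and the E box CACGTG.

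Of 20 immediate-early transcription factors 11 rose and 2 fell, with a median of 0.51. Egr2, Myc and Egr1 led. The orphan nuclear receptor gene Nr4a1, long used as a reporter of receptor engagement in B cells, had 2.46 and 2.38 (mean 2.42 ± 0.073, limma adjusted p = 2.99e-06) and its relative Nr4a2 had 1.41 and 1.14, while Nr4a3 had -0.018 and -0.0097 and was not called. Klf10 had 1.80 and 1.94 and Atf3 had 0.95 and 1.26. The AP-1 genes did not move as a block. Fos had 0.87 and 0.72 and Fosb had 0.72 and 0.45, both called higher. Jund fell, with -0.83 and -0.69, and Jun fell slightly, with -0.33 and -0.090, whereas Junb at -0.11 and -0.031 was not called. Egr3, Ier2, Ier3 and Ier5 were not called either, with means between -0.06 and 0.15.

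Transcription factors of B cell fate rose in 8 of 26 cases and fell in 6. Irf4, which at rising dose turns B cells toward plasma cells, had 2.58 and 2.12 (mean 2.35 ± 0.073, limma adjusted p = 2.99e-06). Bhlhe40 had 2.15 and 2.02, and Batf, an AP-1 partner of IRF4, had 1.18 and 1.07. Bcl6, which encodes a repressor that the germinal centre programme needs, had -1.48 and -1.11 and fell. So did Hhex at -2.60 and -2.51 and Spi1, encoding PU.1, at -1.08 and -0.93. The identity factor genes Pax5, at 0.048 and -0.17, and Ebf1, at -0.18 and 0.17, were not called. The plasma cell factor Prdm1, at 0.083 and 0.089, was not called, and Xbp1 fell, with -0.73 and -0.70.

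**Figure D3:**
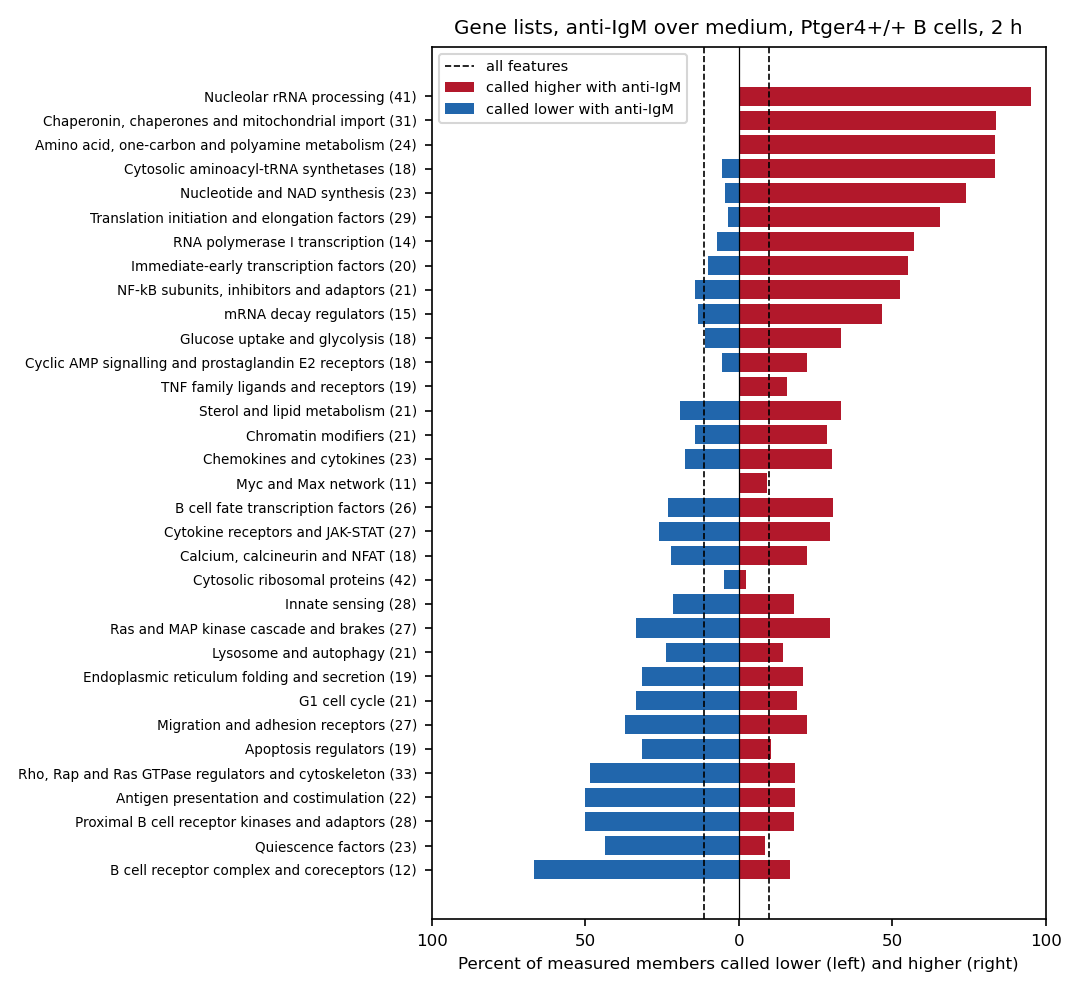
Percent of the measured members of 33 gene lists called higher (right, red) and lower (left, blue) with anti-IgM, number measured in brackets; dashed lines mark the shares over all features, 9.71% higher and 11.4% lower. Lists of biosynthesis stand at the top with few or no falls, and the receptor, quiescence, kinase and antigen presentation lists at the bottom.

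Secreted signals moved in both directions. Of 23 chemokine and cytokine genes 7 rose and 4 fell, and after Ccl3 and Ccl4 the largest rise was Tnf at 1.78 and 1.49 (mean 1.63 ± 0.077, limma adjusted p = 9.79e-06). Ebi3, a subunit shared by several cytokines, had 1.01 and 0.93. Il6 had 0.14 and -0.13 and was not called, and Il10 had -0.0065 and 0.29 with a call at a mean of only 0.14. Il16, encoding a chemoattractant for CD4+ cells, fell, with -2.54 and -2.47. In the TNF family list 3 of 19 rose and none fell. The BAFF receptor gene Tnfrsf13c, needed for B cell survival, had 0.60 and 0.64, and Cd40 had 0.0018 and -0.093 and was not called.

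Receptors for cytokines went both ways, with 8 of 27 higher and 7 lower. Il21r, the receptor for a T cell cytokine, had 0.89 and 0.58, and Il6st, the shared gp130 chain, had 0.62 and 0.58. Of the interferon receptor chains, Ifngr2 at 0.081 and -0.0097 and Ifnar2 at -0.084 and -0.21 were not called. Ifngr1 fell with -0.71 and -0.78 and Ifnar1 with -0.65 and -0.54, as did the kinase gene Jak1 with -0.51 and -0.60 and, furthest of the list, the interleukin-10 receptor gene Il10ra. Il2ra was called with 0.59 and 0.56, but its 4 probes gave means between -0.15 and 2.13, so its average stands for no single probe. Socs1 and Socs3, feedback inhibitors of these receptors, were not called.

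Genes that place B cells in the tissue moved in both directions: 6 of 27 rose and 10 fell. S1pr1, through which lymphocytes leave lymphoid organs, fell, and Cd69, whose product removes S1PR1 from the surface, had 2.29 and 1.73 (mean 2.01 ± 0.092, limma adjusted p = 8.79e-06). Gpr183, the oxysterol receptor EBI2 that draws activated B cells to the outer follicle, had 1.87 and 1.38. The adhesion ligand gene Icam1 had 1.62 and 1.51 and the G protein regulator gene Rgs2 had 1.47 and 1.52. P2ry10 had -1.997 and -1.82, Gnai2, the inhibitory G protein of chemokine receptors, had -1.45 and -1.66 and the integrin gene Itgb7 had -0.94 and -0.82, all called lower. Of the chemokine receptor genes, Ccr6 fell with -0.17 and -0.77, a call lost without the dye term (mean -0.47). Not called were Ccr7 at 0.11 and -0.16, Cxcr5 at -0.066 and -0.22 and Cxcr4 at -0.035 and -0.44. Rgs1 is an example of a gene the arrays do not settle, with -0.072 and 1.29.

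For contact with T cells, 4 of 22 genes of antigen presentation and costimulation rose and 11 fell. The rises were all surface molecules that act on T cells or mark activation: Cd83 had 1.35 and 1.40, the PD-1 ligand genes had 1.53 and 1.13 (Cd274) and 0.90 and 0.58 (Pdcd1lg2), and Cd86, the ligand of CD28, had 1.23 and 0.60. The falls held the machinery that loads peptides, with H2-DMa at -1.35 and -1.47 (mean -1.41 ± 0.069, limma adjusted p = 1.18e-05), the protease gene Ctss at -0.76 and -1.14 and the peptide transporter gene Tap1 at -0.92 and -0.997. Icosl, the ligand of ICOS, fell with -1.90 and -0.80, further apart than most. Of the class II genes themselves, H2-Aa had 0.27 and -0.045 and H2-Eb1 had 0.084 and -0.034, neither of them called.

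Receptors of innate sensing rose in 5 of 28 cases and fell in 6. Tlr7, the endosomal sensor of single-stranded RNA, had 1.13 and 0.95, but Unc93b1, which carries it to endosomes, fell with -1.25 and -1.30. The small partners of TLR4 and CD180 fell, Ly96 with -1.67 and -1.60 and Ly86 with -0.65 and -0.89, and Sting1, the receptor for cyclic dinucleotides, fell with -2.77 and -2.40. Tlr9 had -0.048 and -0.11 and was not called.

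Genes of quiescence fell in 10 of 23 cases and rose in 2, with a median of -0.20. Klf2, which keeps lymphocytes at rest and sustains S1pr1, had -1.51 and -1.29 (mean -1.40 ± 0.058, limma adjusted p = 6.02e-06). Klf3 had -1.60 and -1.45. Pdcd4, an inhibitor of the translation factor eIF4A, was the lowest with -1.85 and -1.72, while Eif4a1 itself, counted among the translation factors, had 1.39 and 1.17 and rose. Foxo1, a target of AKT that supports the resting state, had -0.85 and -1.06, the antiproliferative gene Btg2 had -1.08 and -1.14 and Sesn1, an inhibitor of mTORC1, had -1.26 and -1.28. Not called were Cdkn1b, encoding p27, Txnip and Klf4.

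Genes of growth rose together, and the nucleolar ones had the highest share of calls among the 33 lists. Of 41 measured genes of nucleolar ribosomal RNA processing, 39 rose, none fell and 2 (Nop56 and Utp15) were not called. Their median was 0.91. Utp4, of the small subunit processome, had 1.87 and 1.63 (mean 1.75 ± 0.10, limma adjusted p = 2.81e-05). Gnl3, encoding nucleostemin, had 1.77 and 1.45, nucleolin (Ncl) had 1.45 and 1.30 and the methyltransferase gene Nop2 had 1.15 and 1.03. At the lower end, nucleophosmin (Npm1) had 0.45 and 0.39 and Ebna1bp2 had 0.34 and 0.16. All 41 were above 0 on both Ptger4-/- arrays.

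MYC binds the E box, and Myc was the only 1 of 11 measured genes of the Myc and Max network to be called: Max, its partner, had 0.27 and 0.10, and the antagonists Mnt, Mxd1, Mxd4 and Mxi1 were not called. The E box CACGTG was in 10 of 38 windows of the nucleolar list (26.3%), in 15.2% of the windows of features at least 2-fold higher, in 8.41% of those at least 2-fold lower and in 8.49% of all windows. Stretches around it, with the E box in capitals, are shown for 3 of the nucleolar genes, at chr6:125131803-125131848 (plus strand) for Nop2, chr11:93885761-93885806 (minus strand) for Utp18 and chr11:3963957-3964002 (plus strand) for Pes1, from the same RefSeq table.
Nop2: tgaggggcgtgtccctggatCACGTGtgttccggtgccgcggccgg
Utp18: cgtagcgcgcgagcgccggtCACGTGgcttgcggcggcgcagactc
Pes1: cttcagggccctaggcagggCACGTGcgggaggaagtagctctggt
Their log2 ratios were 1.15 and 1.03 for Nop2, 1.55 and 1.11 for Utp18 and 0.66 and 0.35 for Pes1. These genes were chosen after their values were seen, and only windows with an E box were used for them. The list of amino acid genes, which rose nearly as often, held the E box in 1 of 24 windows.

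RNA polymerase I, which transcribes the ribosomal RNA that those factors process, followed in part: 8 of 14 genes rose and 1 fell, with a median of 0.68. Its second largest subunit gene Polr1b had 1.84 and 1.91 (mean 1.87 ± 0.087, limma adjusted p = 9.53e-06) and Polr1c had 1.21 and 0.83, while the largest subunit gene Polr1a had 0.029 and 0.11 and was not called, nor was the initiation factor gene Rrn3 at 0.070 and 0.11. Messenger RNAs of the ribosomal proteins themselves were mostly uncalled. Of 42 measured, 1 rose (Rpl22, at 0.63 and 0.45), 2 fell (Rpl11 and Rps9) and 39 were not called, with a median of 0.02. Both shares are under those of all features.

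**Figure D4:**
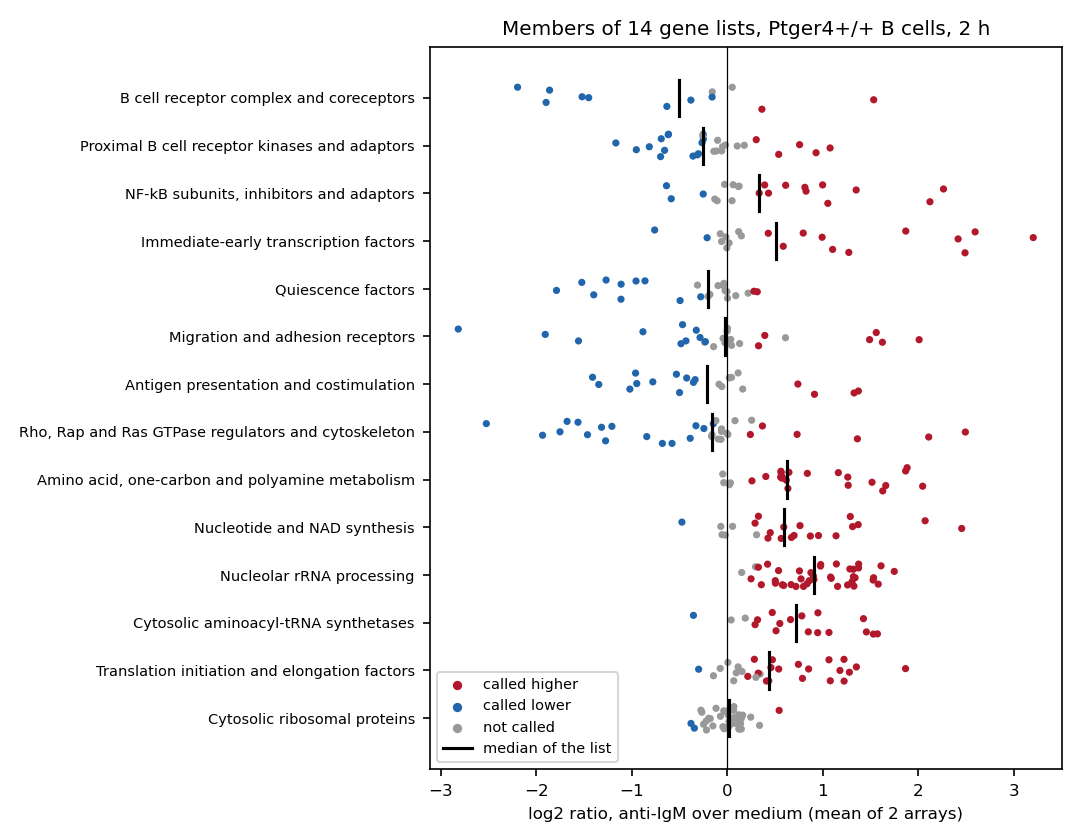
Mean log2 ratio of anti-IgM over medium for each measured member of 14 gene lists, coloured by call, with a black bar at the median of each list. The nucleolar list lies almost wholly above 0, whereas the ribosomal protein list is centred near 0 and mostly uncalled.

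Genes for the supply of building blocks mostly rose too. In amino acid, one-carbon and polyamine metabolism 20 of 24 genes rose and none fell (median 0.63). Mthfd2, the mitochondrial folate enzyme, had 2.06 and 2.03 (mean 2.05 ± 0.049, limma adjusted p = 1.32e-06). Of the amino acid exchanger made of 2 chains, Slc7a5 had 2.17 and 1.60 and Slc3a2 had 1.52 and 1.02. Serine synthesis was represented by Psat1 at 2.15 and 1.11 and Phgdh at 1.09 and 0.59, asparagine synthesis by Asns at 1.79 and 1.24, and polyamine synthesis by Odc1 at 1.47 and 1.06 and Srm at 2.34 and 1.40. Atf4, the transcription factor of the amino acid response, had 0.90 and 1.43. The cystine carrier gene Slc7a11, with 0.10 and -0.027, was not called.

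In nucleotide and NAD synthesis 17 of 23 genes rose and 1 fell (median 0.59). Ctps, which makes CTP, had 2.16 and 1.99 (mean 2.07 ± 0.089, limma adjusted p = 6.86e-06), and Ppat, the first committed enzyme of purine synthesis, had 1.60 and 1.14. Of the IMP dehydrogenase genes, Impdh1 had 1.38 and 1.20 and Impdh2 had 1.02 and 0.90, and Cad, which starts pyrimidine synthesis, had 0.84 and 0.51. Of the genes that make deoxynucleotides, Rrm1 at -0.11 and 0.073, Rrm2 at -0.12 and 0.011 and Tyms at -0.026 and -0.11 were not called. Glycolysis was uneven, with 6 of 18 higher and 2 lower: Hk2 was far above the rest, Pgam1 had 1.20 and 1.20 and Ldha 1.000 and 0.67, while Gpi1 and Eno1 fell and the glucose transporter gene Slc2a1 at 0.088 and -0.23 was not called.

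Most genes of aminoacyl-tRNA synthetases, translation factors, and chaperones and mitochondrial import were also higher. Of 18 cytosolic aminoacyl-tRNA synthetases 15 rose and 1 fell (median 0.72), from Nars at 1.70 and 1.45 and Yars at 1.46 and 1.60 to the glutaminyl enzyme Qars, which fell with -0.24 and -0.47. Of 29 translation factors 19 rose and 1 fell (median 0.44). The cap-binding protein gene Eif4e had 1.68 and 2.06 (mean 1.87 ± 0.078, limma adjusted p = 6.02e-06), its inhibitors were not called, with 0.23 and 0.076 for Eif4ebp1 and 0.029 and -0.015 for Eif4ebp2, and the elongation factor gene Eef2 had -0.082 and -0.064. Eif5a has 1 probe called higher and 1 called lower, so its averaged call is uncertain. Among chaperones and mitochondrial import, 26 of 31 rose and none fell (median 0.72), including the mitochondrial chaperonin gene Hspd1 at 1.65 and 0.92, the import genes Timm8a1 at 1.496 and 1.51 and Timm23 at 1.53 and 1.11, and every listed Cct gene of the cytosolic chaperonin. In the endoplasmic reticulum the balance differed: 4 of 19 rose and 6 fell. Hspa5 (BiP) had 1.34 and 1.12 and Herpud1 1.02 and 0.94, but Mzb1, a folding factor of immunoglobulin M, had -1.84 and -2.18 and fell.

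In the biosynthesis lists array 1 gave the larger ratios. It exceeded array 2 in 36 of 41 nucleolar genes, whose medians were 1.15 on array 1 and 0.78 on array 2, and in 72.8% of the features called higher, against 52.1% of all features and 52.5% of those called lower. The dyes were exchanged between the arrays, so dye and array cannot be told apart within this pair. On the Ptger4-/- arrays, which carry the dyes in the same order, the nucleolar medians were 1.29 and 1.10.

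In a list of cell cycle genes centred on G1, though not confined to it, 4 of 21 rose and 7 fell. Ccnd2, the cyclin of early B cell activation, had 1.36 and 0.84 (mean 1.10 ± 0.070, limma adjusted p = 3.64e-05) and Cdk4 had 1.04 and 0.41. Ccnd3 at -0.024 and -0.28 and Ccne1 at -0.045 and -0.018 were not called. Cdc25b fell with -1.66 and -1.55, Ccng2 with -1.51 and -1.31 and the retinoblastoma gene Rb1 with -0.82 and -1.03. Of 19 apoptosis genes 2 rose and 6 fell: the survival gene Bcl2a1b had 1.05 and 1.35 and the BH3-only gene Bid had 0.95 and 0.58, while Casp8 had -1.13 and -1.19 and Bad -0.88 and -0.74. Bcl2 at 0.025 and -0.036 and Bcl2l1 at 0.031 and 0.092 were not called, and Mcl1 had -0.24 and -0.61 and fell.

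Regulators of small GTPases and the cytoskeleton fell in 16 of 33 cases and rose in 6. Rasgrp2, an exchange factor for Rap1, had -2.004 and -1.87 (mean -1.93 ± 0.075, limma adjusted p = 4.81e-06), Coro1a, which binds actin, had -1.91 and -1.60 and the GTPase gene Rhoh had -1.67 and -1.69. Marcksl1 rose with 2.33 and 2.66 and Tagap with 1.72 and 1.01. Regulators of messenger RNA decay rose in 7 of 15 cases and fell in 2. The deadenylase gene Cnot7 had 2.58 and 2.17 and the RNase gene Zc3h12a, encoding regnase-1, had 0.79 and 0.46. The TTP family split, with Zfp36 at 0.68 and 0.21 and Zfp36l1 at 0.48 and 0.42 called higher and Zfp36l2 at -1.80 and -1.54 called lower.

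Of the remaining lists, sterol and lipid genes rose in 7 of 21 cases and fell in 4. Of the enzymes of cholesterol synthesis, Idi1 had 1.54 and 1.498 and Sqle had 1.30 and 0.82. Among target genes of LXR, which export cholesterol or remove its receptor, Abca1 fell with -0.87 and -0.77, Abcg1 with -1.18 and -1.38 and Mylip with -2.53 and -2.77. Chromatin modifiers rose in 6 of 21 cases and fell in 3, led by Satb1 at 1.27 and 1.36, and Ezh2 had 0.64 and 0.31. Kdm6b was called, but its 2 probes had means of 0.068 and 1.90. Of 21 lysosome and autophagy genes 3 rose and 5 fell.

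The genotypes of the study concern the PGE2 receptor EP4. Of 18 genes of cyclic AMP signalling and PGE2 receptors 4 rose and 1 fell. Beside Ptger4 at 1.08 and 0.74, Ptger2, encoding EP2, the other receptor that raises cyclic AMP, had 0.24 and 0.40 (mean 0.32 ± 0.047, limma adjusted p = 0.00221). Ptger1 at 0.0092 and -0.0068 and Ptger3 at 0.17 and 0.057 were not called. Crem, a factor induced by cyclic AMP, had 0.76 and 0.73, and the phosphodiesterase gene Pde4b fell with -0.78 and -0.84. The labels do not place the Ptger4 probe within the gene, so it does not check the genotype.

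Grouping genes by the stem of their symbol, chosen after the values were seen, extended the description beyond the lists. Over all features 9.71% were called higher and 11.4% lower. Of 32 measured Ddx genes (RNA helicases) 15 rose and 2 fell, of 10 Exosc genes (RNA exosome) 6 rose and none fell, and of 20 Nup genes (nuclear pore) 8 rose and 2 fell. Mitochondrial ribosomal proteins rose in 29 of 77 cases and fell in 12, and their difference from the cytosolic ones was not tested. Proteasome genes rose in 17 of 49 cases and fell in 6, and the 3 lowest were the immunoproteasome subunit genes Psmb8 at -1.62 and -2.11, Psmb9 at -1.01 and -0.66 and Psmb10 at -0.72 and -0.87. Falls outnumbered rises among Rab genes (9 rose and 22 fell of 69), Snx genes (1 and 8 of 29) and Arhgap and Arhgef genes (1 and 11 of 53). The rises of Rab genes (13.0%) and the falls of proteasome genes (12.2%) were near the shares of all features. Of 771 olfactory receptor genes, which serve in the nose, 13 (1.69%) were called higher and 3 (0.389%) lower.

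After 24 h the second treatment of the study, PGE2 added to anti-IgM, was compared with anti-IgM alone on other arrays of Ptger4+/+ cells. Of the 25 largest 2 h rises, 19 were below 0 on both PGE2 arrays and 3 above, against 28.8% and 29.9% of all features. Nampt had -1.59 and -1.56 with PGE2, Pa2g4 -1.30 and -1.43 and Ccl3 -1.12 and -1.41. Il1r2 went the other way, at 1.27 and 1.27. Of the 41 nucleolar genes, 38 were below 0 on both PGE2 arrays, with medians of -0.47 and -0.53, as were 28 of 31 chaperone and import genes and 20 of 23 nucleotide genes. Of the features called higher at 2 h, 73.0% were below 0 on both PGE2 arrays, and of those called lower 47.9%. No RNA label is shared between the 2 h and 24 h arrays, times differ, and no test was made of these shares.

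The closest comparison in the series is the same treatment in Ptger4-/- cells, and the difference of the responses was tested directly as Ptger4-/- minus Ptger4+/+. It was called for 391 features (1.74%), 254 higher (1.13%) and 137 lower (0.608%). Of the 391, 289 were also called in Ptger4+/+ cells alone, where 21.1% of all features were. Both tests use the same Ptger4+/+ estimate and the same spread per gene, so this overlap is not independent. Cd74, the invariant chain of MHC class II, had 1.54 and 1.08 on the Ptger4-/- arrays and -0.15 and -0.56 on the Ptger4+/+ arrays, a difference of 1.66 ± 0.056 (limma adjusted p = 0.000217). The difference was called for only 3 of the 22 measured members of its list, Cd74, H2-DMa and H2-Aa, all in the same direction. H2-DMa had -0.42 and -0.47 on the Ptger4-/- arrays and -1.35 and -1.47 on the Ptger4+/+ arrays. H2-Aa had 1.05 and 0.78 on the Ptger4-/- arrays and 0.27 and -0.045 on the Ptger4+/+ arrays. The other members were not called, among them H2-Eb1 (difference 0.077) and H2-DMb1 (0.078). Gnai2 fell less in Ptger4-/- cells, with -0.44 and -0.54 there and -1.45 and -1.66 in Ptger4+/+ cells, and Cdk4 rose more, with 2.23 and 1.88 in Ptger4-/- cells and 1.04 and 0.41 in Ptger4+/+ cells. Nfkb1 also rose more in Ptger4-/- cells, with 2.27 and 1.98 there and 1.35 and 1.35 in Ptger4+/+ cells (difference 0.78 ± 0.12, limma adjusted p = 0.0326). Nr4a1 rose less, with 1.94 and 1.66 in Ptger4-/- cells and 2.46 and 2.38 in Ptger4+/+ cells (difference -0.62 ± 0.10, limma adjusted p = 0.041). Without a dye term only 7 features passed: Bcl2l12, Bcl7a, Cxxc5, Ddx3x, Eif4b, Gnai2 and Plagl2, so the calls for Cd74, H2-DMa, H2-Aa, Cdk4, Nfkb1 and Nr4a1 rest on that term. When any 1 of the 4 arrays was left out, Cd74, Cdk4 and Gnai2 kept their call, and H2-Aa and Nr4a1 lost it each time.

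**Figure D5:**
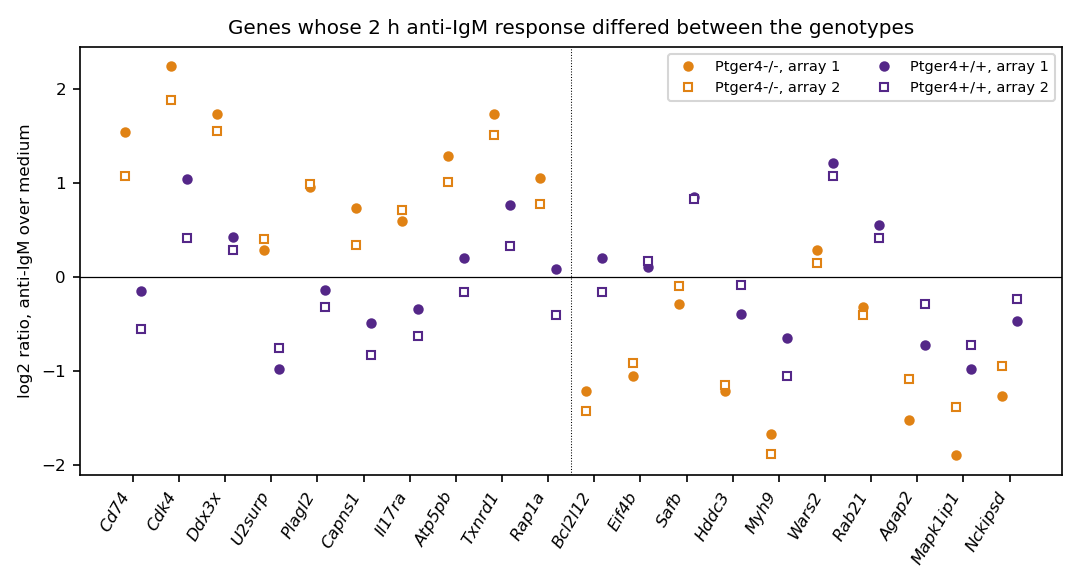
Log2 ratio of anti-IgM over medium at 2 h for the 20 genes with the largest called differences between the genotypes, Ptger4-/- in orange to the left of Ptger4+/+ in purple for each gene, array 1 as filled circles and array 2 as open squares; the dotted line divides genes higher in Ptger4-/- from those lower. The arrays of the genotypes do not overlap in any of these genes, which is how they were chosen.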

How the data were processed

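The series holds 10 arrays with 2 colours of RNA from B cells of mouse spleen, per the labels' protocols. The deposited table was read as holding log2 ratios of Cy5 over Cy3. The sources used here give neither the authors' normalisation nor the log base and direction. Base 10 can be set aside, because the lowest value, -9.03, is larger in size than the 4.82 a scanner of 16 bits can give, but natural logs cannot. Ratios were turned to numerator over denominator by the dyes in the labels. Of 25344 probes 21111 had 1 gene symbol each and the other 4233 lacked one. The mouse reference left 17069 symbols as they were and replaced 3974 older ones, and 68 it did not hold were kept. Averaging the probes of each symbol left 18300 genes (16299 with a single probe) and, with the unnamed probes, 22533 features. The table has no gaps (0 missing values), and no filter on dim probes was possible without intensities.

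All arrays entered 1 limma fit (limma 3.58.1, R 4.3.3) with 5 group coefficients and a dye effect per feature, which left 4 residual degrees of freedom. Prior degrees of freedom were 3.13. The contrasts were anti-IgM over medium in Ptger4+/+ cells and its difference between genotypes. P-values were adjusted by Benjamini-Hochberg over all features, with a limit of 0.05. A pair with 1 array left out was assumed to have the spread of the other groups. Data were simulated with this design, independent normal noise of the fitted spread, and 100 features changed at each fold in each contrast. There limma recovered 94% of 1.5-fold and 100% of 2-fold changes of anti-IgM over medium. For the difference between genotypes it recovered 89% and 98%. Of the calls in these simulations 7.18% for anti-IgM over medium and 6.30% for the difference were false, both more than the limit of 0.05 sets. On the real arrays 21.1% of features were called for anti-IgM over medium, and some features stood out on 1 array only. The simulated rates may therefore not carry over. Alternatives dropped the dye term, centred the arrays with or without scaling, kept probes apart, used only the 4 arrays at 2 h, tested against a minimum fold of 1.5 (treat in limma), set the limit to 0.01 or left out 1 array at a time. After seeing the data, 2 more were added: leaving features with disagreeing arrays uncounted, and reading the values as natural logs.

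Named were Ptger4, the 25 largest rises and 25 largest falls among called genes with the same sign on both arrays, the 10 largest differences between genotypes in each direction with the same sign for all array pairs, and in each of 33 gene lists its key genes and its 3 largest called members in each direction. Other list members named were picked for their role after their values were seen. The comparison, the members and the lists were chosen with earlier results of these data known, so no count over a list is independent support for its direction. Motifs were searched on both strands of RefSeq promoter windows of GRCm38.p6.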

Additional observations from a re-analysis of the deposited data

Results flagged for a closer look

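The anti-IgM response at 2 h differed between the genotypes, by the limma test of the difference itself, in the 20 genes named for it. Differences are log2 values of Ptger4-/- minus Ptger4+/+, and all 4 pairs of arrays had the same sign by the rule of choice. Those higher in Ptger4-/- cells were Cd74 at 1.66, the cyclin-dependent kinase gene Cdk4 at 1.33, the RNA helicase gene Ddx3x at 1.28, the splicing gene U2surp at 1.21, Plagl2 at 1.20, the calpain subunit gene Capns1 at 1.20, the interleukin-17 receptor gene Il17ra at 1.14, the ATP synthase gene Atp5pb at 1.13, the thioredoxin reductase gene Txnrd1 at 1.07 and the GTPase gene Rap1a at 1.07. U2surp, Plagl2, Capns1, Il17ra and Cd74 were above 0 on both Ptger4-/- arrays and below 0 on both Ptger4+/+ arrays.

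Those lower in Ptger4-/- cells were Bcl2l12 at -1.34, the translation factor gene Eif4b at -1.12, Safb at -1.03, Hddc3 at -0.94, the myosin gene Myh9 at -0.92, the mitochondrial synthetase gene Wars2 at -0.92, Rab21 at -0.85, Agap2 at -0.80, Mapk1ip1 at -0.79 and Nckipsd at -0.75. Bcl2l12 had -1.21 and -1.43 on the Ptger4-/- arrays and 0.20 and -0.16 on the Ptger4+/+ arrays, and Eif4b had -1.05 and -0.92 and 0.10 and 0.17. Eif4b encodes a cofactor of the helicase eIF4A and was called in neither direction in Ptger4+/+ cells. All 20 passed in the fit of only the 4 arrays at 2 h, and 4 of them passed without the dye term (Ddx3x, Plagl2, Bcl2l12 and Eif4b). Whether extraction, culture or animals differed between the genotypes was not given, so these and the genotype cannot be told apart.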

How the results depend on the processing

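The count of 4749 called features in Ptger4+/+ cells was 4755 with centred arrays, 4710 with centred and scaled arrays, 5407 single probes, 5064 with only the 4 arrays at 2 h, 3171 without the dye term, 3332 at a limit of 0.01 and 4689 without features whose arrays disagree. It was 752 with limma's treat at a minimum fold of 1.5. Leaving out an array gave 3024 to 4521. The lowest, 3024 (1216 higher and 1808 lower), came without array 1 of Ptger4+/+ cells, and 3424 (1855 higher and 1569 lower) without array 2. The difference between genotypes was less steady. Its count of 391 became 7 without the dye term, 1 with a minimum fold of 1.5 and 10 at a limit of 0.01, and 48 to 252 when an array was left out. It was 252 without array 1 and 48 without array 2 of Ptger4+/+ cells, and 91 without array 1 and 63 without array 2 of Ptger4-/- cells. The share of higher calls in it was 65.0%, and it was 83.7% without array 1 and 27.1% without array 2 of Ptger4+/+ cells, and 29.7% without array 1 and 82.5% without array 2 of Ptger4-/- cells. The cause was not tested. The 463 features past 2-fold on each array became 1236 at 1.5-fold, 47 at 4-fold, 6 with 1 array left unturned and 947 read as natural logs. Without array 1 of Ptger4+/+ cells these named genes lost their call, with the log2 ratio that remained: Nfkbia 0.28, Birc3 -0.11, Eif5a 0.27, Rpl22 0.40, Ezh2 0.35, Zfp36l1 0.39, Tap1 -0.76, Ebna1bp2 0.13, Cd68 0.25, Zbtb46 0.22, Jun -0.18, Il10 0.17, Hba-a1 0.14, Itgax -0.22, Ddx3x 0.29, Plagl2 -0.31, Il17ra -0.63 and Agap2 -0.41. Without array 2 they were Npm1 0.25, Gpi1 -0.28, Rpl11 -0.21, Rps9 -0.24, Mcl1 -0.29, Tap1 -1.16, Jun -0.24, Il10 0.12, Hba-a1 0.25, Itgax -0.12, Plagl2 -0.16, Il17ra -0.34 and Nckipsd -0.32. Of the 20 genes with the largest differences, 4 lost their call without array 1 and 8 without array 2 of Ptger4+/+ cells, and 9 without array 1 and 9 without array 2 of Ptger4-/- cells. Over 479 results for single genes, the call was lost for 63 without the dye term, 44 at a limit of 0.01 and 190 with a minimum fold of 1.5. Tlr4, uncalled at 0.13, was -0.27 and called lower without array 1 of Ptger4+/+ cells, and 0.53 without array 2. No paired analysis was possible because the array numbers follow the order of deposit and the labels pair no samples across groups. Without intensities, dim probes could not be told from bright ones.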

Other observations

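Some large changes lay outside the gene lists and the 50 largest changes, and are named here after their values were seen. The deubiquitinase gene Usp36, whose product acts in the nucleolus, had log2 ratios of 2.02 and 1.58 on array 1 and array 2. Nup43, of the nuclear pore, had 1.64 and 1.35. The complex I assembly genes went apart, with Ndufaf4 at 1.62 and 1.53 and Ndufaf3 at -1.05 and -1.22, while 7 of 41 Nduf genes rose and 14 fell. Trim12c, a gene of the interferon response, fell with -1.81 and -1.41. Of 20 genes with an Ifi symbol 1 rose (5%) and 5 fell (25%), against 9.71% and 11.4% of all features. Genes of that response within the lists did not all fall: Cxcl10 rose, with 0.33 and 0.43, and Irf7 and Ifih1 were not called.

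Several genes were far from 0 on 1 array only and were not called. Brwd1 had 6.38 and -0.13, Crebrf 4.27 and 0.019 and Map6 3.79 and 0.0077. Kctd15, with 0.34 and -3.60, was low on array 2 only, and Bmp8a, with 2.73 and -2.27, and Sox2, with 1.94 and -1.64, had large ratios of opposite sign on the arrays. The reason was not tested.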
